A study of Mus musculus with 3 samples.

Results

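Secreted Wnt antagonists and Wnt target genes were followed in C3H10T1/2 cells, a mouse mesenchymal fibroblast line, after hexavalent chromium, Cr(VI). The set held 10 genes of 27724 on the array: the antagonists Sfrp1, Sfrp2, Sfrp4, Frzb, Dkk1, Dkk2, Dkk3 and Wif1, and the targets Axin2 and Lef1. They were chosen by name, with earlier results of these data known. Every non-control probe annotated to them was taken, 14 probes of 41167. One group of cells was untreated, 1 received Cr(VI) at 0.01 uM and 1 received Cr(VI) at 1 uM. Per the labels, each group had 3 flasks, exposure began 24 h after 2000 cells were seeded in a flask and ended 48 h later, and the cells then grew in fresh medium to day 15, when RNA was taken. The arrays therefore describe cells sampled after Cr(VI) had been removed. Each group had 1 array, all on 1 slide and 1 scan, and the labels do not say whether RNA of the flasks was pooled. There were no replicates, so no test was possible and the comparisons between conditions are differences between single arrays. The line is a single established line, which limits how far the values speak for mesenchymal cells at large.

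Wnt proteins are secreted signals that bind Frizzled receptors and Lrp5 or Lrp6 co-receptors on neighbouring cells. Binding stabilises beta-catenin, which enters the nucleus and switches on target genes together with transcription factors of the Tcf and Lef family. Sfrp proteins, Frzb and Wif1 bind Wnt proteins outside the cell, whereas Dkk1 and Dkk2 act on the Lrp co-receptors. In mesenchymal cells the pathway takes part in the choice between bone, cartilage and fat fates.

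At 1 uM, the members split in both directions. Sfrp1, Sfrp2 and Frzb were lower than in untreated cells, by 3.83-fold, at least 7.11-fold and at least 2.97-fold. Dkk2 was 3.78-fold higher and Sfrp4 2.10-fold higher. Lef1 differed by 1.06-fold, and Dkk1, Dkk3, Wif1 and Axin2 were not well above background on any array. At 0.01 uM, none of the 6 members that could be compared was 2-fold apart from untreated cells.

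Each array probe is 60 bases long. The first 30 bases of the probes that carry these differences are printed here because the values belong to these stretches of the transcripts and not to whole genes. Probe positions follow the array files (mm9), and exon and UTR annotation was not used here. Sfrp1 probe a lies at chr8:24558112-24558171 and Sfrp1 probe b at chr8:24558800-24558859, both on the plus strand. The Sfrp2 probe lies at chr3:83577864-83577923, the Frzb probe at chr2:80252582-80252641, the Sfrp4 probe at chr13:19724488-19724547 and the Dkk2 probe at chr3:131842357-131842416. Lef1 probe a is listed from 130907851 to 130926012 on chromosome 3, a span longer than the probe itself, and Lef1 probe b lies at chr3:130927036-130927095.
Sfrp1 probe a: cggaatcagtatagcgtggaaggagacagt
Sfrp1 probe b: gtgcattagtaattagaaatagtctaacct
Sfrp2: tcggcatctaagtcttcaaacatttcgttg
Frzb: gtgcaccagggtgttatttaacagaggtat
Sfrp4: cacagttgtctgtgtgcatactgtgtaaga
Dkk2: tcagagtgatgatgtcatcagaagtttata
Lef1 probe a: gtacaggtcccagaatgacagctgcctaca
Lef1 probe b: atctgtttttattagccgattagtgggaat

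Of all probes, 41.8% were well above background in untreated cells, 36.4% at 0.01 uM and 41.5% at 1 uM, so the 0.01 uM array measured fewer dim genes. Signals were compared on a log2 scale after each array's 75th percentile had been subtracted. The error given with a difference is the standard error (SE) of the scanner software's error model, which is technical and leaves out differences between cultures. Where a probe was well above background on 1 of the 2 arrays, the difference is a bound, written "at least". The difference is also a bound where the brighter array alone was saturated. All 16 mesenchymal fibroblast markers were well above background in untreated cells and at 0.01 uM, and 15 at 1 uM, where Thy1 was the exception. None of 8 epithelial markers was well above background on any array. In bulk RNA, fewer cells that express a gene and less of its RNA per cell cannot be told apart.

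**Figure D1:**
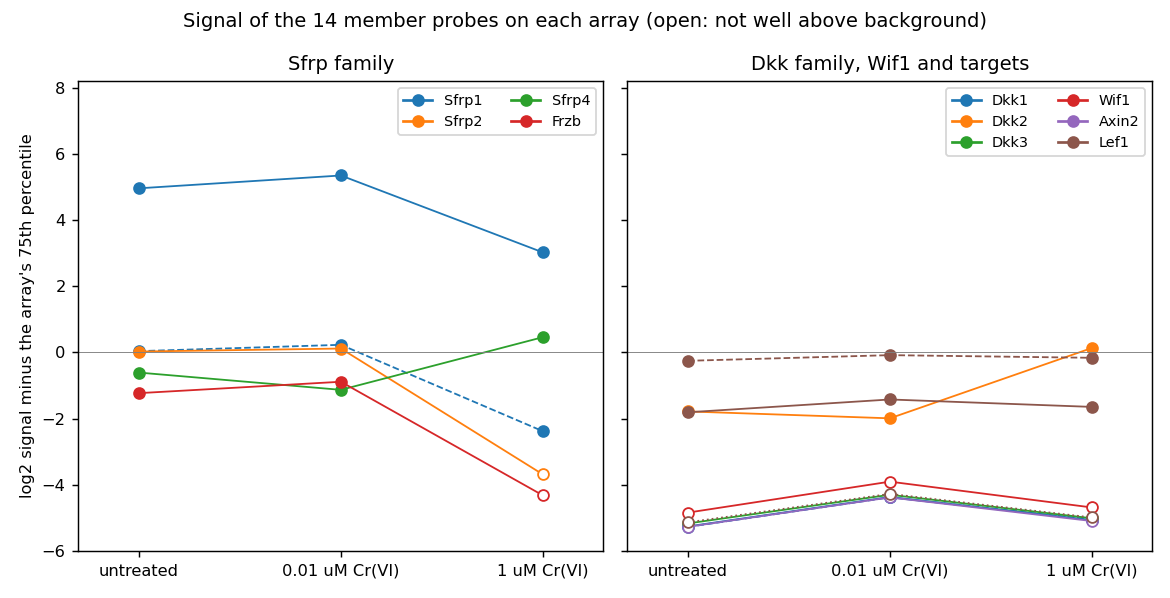
Log2 signal, relative to the array's 75th percentile, of the 14 member probes (vertical axis) on the untreated, 0.01 uM and 1 uM arrays (horizontal axis). Lines join the values of 1 probe, dashed and dotted lines are further probes of the same gene, and open circles are values not well above background. Sfrp1, Sfrp2 and Frzb are lowest on the 1 uM array, Sfrp4 and Dkk2 are highest there, and the 6 probes at the bottom right are open on every array.

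The secreted Frizzled-related proteins, which carry a Wnt-binding domain like that of Frizzled receptors, held the brightest member. Sfrp1 probe a had a processed signal (in the scanner's intensity units) of 21668 in untreated cells, 20959 at 0.01 uM and 6109 at 1 uM. On the scaled log2 axis these signals were 4.96, 5.35 and 3.02. The 1 uM array thus stood below both others, and the 0.01 uM array stood somewhat above the untreated one. The difference between 1 uM and untreated was -1.94 (SE 0.20), 3.83-fold lower. Of 11100 genes measured on both arrays, 89 had a lower difference. Probe b of Sfrp1, at a lower signal of 715, 604 and 144, gave -2.42 (SE 0.30), 5.35-fold lower, so both probes placed the gene lower at 1 uM.

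Sfrp2, a relative of Sfrp1 that is also secreted by mesenchymal cells, had a processed signal of 709 in untreated cells, 559 at 0.01 uM and 58.3 at 1 uM. On the scaled log2 axis Sfrp2 lay at 0.02, 0.12 and -3.69. It was well above background on the first 2 arrays and not on the 1 uM array. The difference is therefore a bound, at least 7.11-fold lower at 1 uM, or -2.83 on the log2 scale. The value read directly from the spots was -3.71. The bound was -2.10 with normexp background correction and -2.14 with spike-in scaling.

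Frzb, a Wnt-binding protein known from developing cartilage, followed the same order on the 3 arrays. Its processed signal was 297 in untreated cells, 279 at 0.01 uM and 37.6 at 1 uM, again not well above background at 1 uM. On the scaled log2 axis Frzb lay at -1.23, -0.89 and -4.32, so the 0.01 uM value was the highest there. At 1 uM Frzb was at least 2.97-fold lower than in untreated cells, or -1.57 on the log2 scale, and the spots themselves gave -3.09. With scaling on spike-in controls the Frzb bound was -0.89, under 2-fold. If both arrays had to be well above background, neither Frzb nor Sfrp2 could be compared.

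Sfrp4, the remaining family member on the list, went the other way. Its processed signal was 457 in untreated cells, 235 at 0.01 uM and 1035 at 1 uM. On the scaled log2 axis Sfrp4 lay at -0.61, -1.13 and 0.46, so the 1 uM array was the highest and the 0.01 uM array the lowest. The log2 difference at 1 uM was 1.07 (SE 0.22), 2.10-fold higher, close to the 2-fold line. With normexp background correction it was 0.75, under 2-fold. Within 1 family, then, Sfrp1, Sfrp2 and Frzb were lower at 1 uM and Sfrp4 was higher.

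Of the 3 Dickkopf genes on the list, Dkk2 was the one well above background. Dkk2, which can either block or weakly activate Lrp6 depending on its partners, had a processed signal of 202 in untreated cells, 129 at 0.01 uM and 825 at 1 uM. On the scaled log2 axis the untreated and 0.01 uM arrays were close, at -1.78 and -1.99, and the 1 uM array stood above both, at 0.13. The log2 difference at 1 uM was 1.92 (SE 0.24), 3.78-fold higher, and 52 of the 11100 genes measured on both arrays had a higher difference. Both Dkk1 probes, the Dkk3 probe and the Wif1 probe were not well above background on any array. Together with the Axin2 probe and the third Lef1 probe, their processed signals lay between 18.0 and 34.4. Their raw spot means, 310 to 410, were close to the background of 328 to 415 that the software used for them, so no fold is given. Not being well above background does not show that these genes were silent.

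Of the target genes, Lef1 was measured and Axin2, a feedback inhibitor often read as a marker of active Wnt signalling, was not. Lef1 is itself a transcription factor through which beta-catenin acts. Lef1 probe b had a processed signal of 584 in untreated cells, 486 at 0.01 uM and 672 at 1 uM, and on the scaled log2 axis the 3 arrays lay at -0.25, -0.08 and -0.16. The difference at 1 uM was 0.09 (SE 0.21). Lef1 probe a, with processed signals of 199, 192 and 240, gave 0.16 (SE 0.29). Both differences were smaller than their technical error. With spike-in scaling the difference of probe b was 0.78. Lef1 and Dkk2 lie 915 kb apart on chromosome 3.

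**Figure D2:**
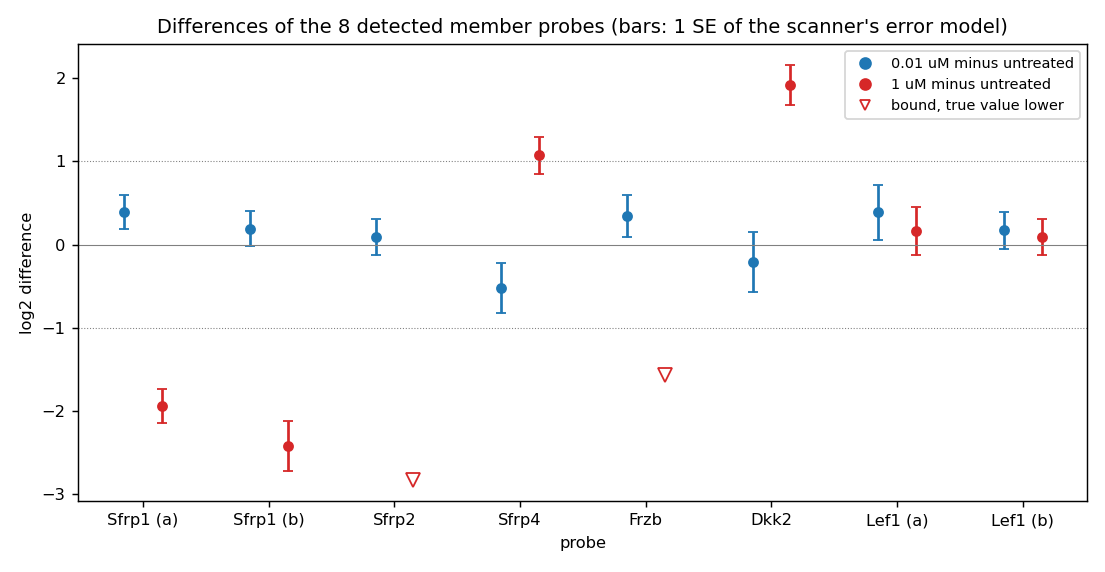
Log2 difference from untreated cells (vertical axis) of the 8 member probes that were well above background on at least 2 arrays, at 0.01 uM and at 1 uM. Bars are 1 SE of the scanner's error model, open triangles are bounds, and dotted lines mark 2-fold. At 1 uM the Sfrp1, Sfrp2 and Frzb probes lie below the lower line and Sfrp4 and Dkk2 above the upper one, whereas every 0.01 uM value lies between the lines.

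At 1 uM, 5 of the 6 compared members were at least 2-fold apart from untreated cells, 2 higher and 3 lower. Among all 12452 genes compared, 10.5% were that far apart, 5.67% higher and 4.86% lower. The share of higher genes among them was 53.9%, and it was 63.6% with loess scaling and 94.7% with spike-in scaling, which moved the median difference of all genes to 0.64. It was 39.2% with normexp background correction, 49.6% where both arrays had to be well above background and 46.3% at a 3-fold threshold. The direction of Sfrp1, Sfrp2, Frzb, Sfrp4 and Dkk2 was the same under each scaling tried, and with spike-in scaling Sfrp1 was at -1.25, Sfrp4 at 1.75 and Dkk2 at 2.60. The median log2 difference of the 6 members was -0.74, against -0.03 for all genes with a difference or a bound. The members' median falls between the Frzb bound of -1.57 and Lef1 at 0.09, so it rests in part on a bound and lies near no member. Since 4 members could not be compared, the count describes 6 genes and not the whole list. The members were chosen with earlier results of these data known. Their share beside that of all genes is therefore a description only, here and between the doses.

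At 0.01 uM, 0 of 6 compared members were at least 2-fold apart from untreated cells, and 0.436% of the 11916 genes compared were, 0.269% higher and 0.168% lower. The values were 0.39 (SE 0.20) for Sfrp1 probe a, 0.19 (SE 0.21) for Sfrp1 probe b and 0.09 (SE 0.22) for Sfrp2. Frzb was at 0.34 (SE 0.25) and Dkk2 at -0.21 (SE 0.36). Sfrp4 was farthest from 0, at -0.52 (SE 0.30), opposite in sign to its value at 1 uM. Lef1 was at 0.17 (SE 0.22) with probe b and 0.39 (SE 0.33) with probe a. For comparison, the SD of the differences over genes measured on both arrays was 0.19 at this dose (10540 genes) and 0.61 at 1 uM (11100 genes). Of the 10540 genes, 278 had a higher difference than Sfrp1 probe a, 377 than Frzb, 2068 than Lef1 probe b and 4169 than Sfrp2. A lower difference than that of Sfrp4 was found for 134 genes, and than that of Dkk2 for 833.

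**Figure D3:**
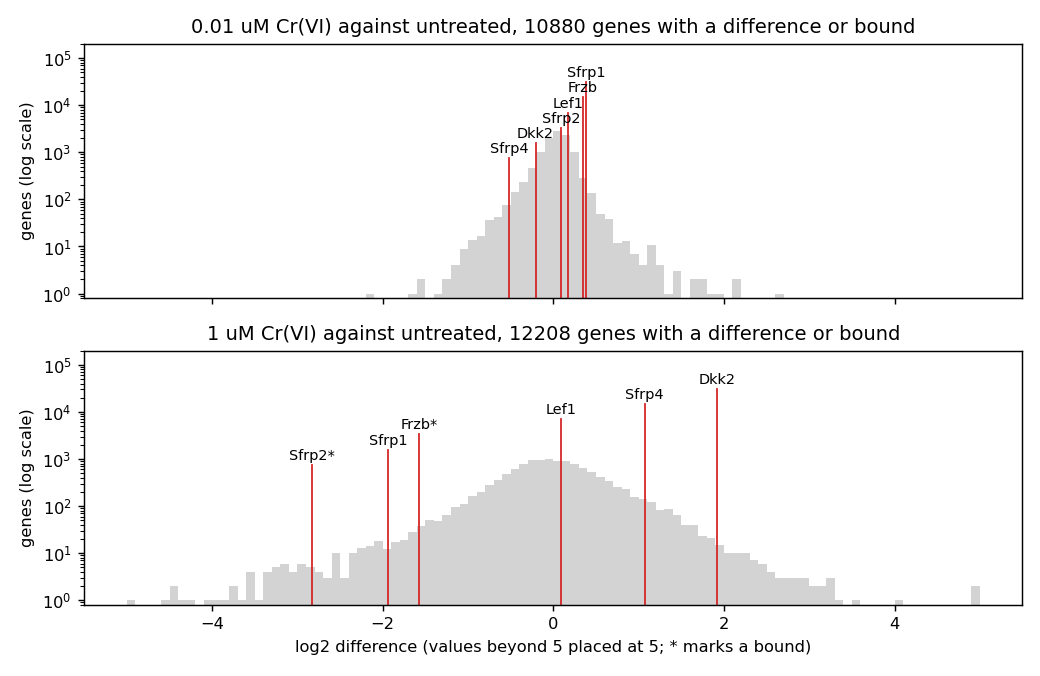
Distribution of log2 differences from untreated cells over all genes with a difference or a bound (grey, number of genes on a log scale), at 0.01 uM (top) and 1 uM (bottom). Red lines mark the 6 compared members, and an asterisk marks a bound. All genes spread more widely at 1 uM, with an SD of 0.61 against 0.19, and there the members lie on both sides, from -2.83 for Sfrp2 to 1.92 for Dkk2.

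The doses were also set against each other. The comparisons share arrays (both doses were set against the same untreated array), so none is a separate measurement of another. Sfrp1 was 5.01-fold lower at 1 uM than at 0.01 uM, Sfrp2 at least 7.57-fold lower and Frzb at least 3.78-fold lower. Dkk2 was 4.36-fold higher and Sfrp4 3.01-fold higher. These 5 of 6 members compare with 11.7% of the 12060 genes compared, 5.2% higher and 6.45% lower. Lef1 differed by -0.08 (SE 0.22) on the log2 scale with probe b, which was the member nearest to 0.

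The rest of the pathway was read from 5 further lists, which together held 110 genes on the array. Of the 67 that could be compared at 1 uM, 11 were 2-fold apart, 2 of them higher and 9 lower, beside 5.67% higher and 4.86% lower among all 12452 genes. The median of these lists was -0.22 on the log2 scale, against -0.03 for all genes, and the list medians that follow are read against the same value. The list counts at 1 uM that follow stand beside the same 5.67% higher and 4.86% lower. With so few genes per list they are descriptions only. With spike-in scaling 14 were higher and 3 lower, beside 3150 higher and 175 lower among all 12452 genes. The balance of directions thus depends on the scaling, for all genes as for these lists. At 0.01 uM, 0 of 64 were 2-fold apart, beside 0.436% of all genes compared. Between the doses 1 was higher at 1 uM and 9 were lower, of 63, beside 5.2% and 6.45% of all genes.

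Among receptors and extracellular agonists, 0 of 14 genes were at least 2-fold higher and 3 were lower at 1 uM, with a median of -0.34. R-spondins are secreted proteins that keep Frizzled receptors on the cell surface and so strengthen Wnt signals. Rspo2 had scaled log2 signals of 4.33 in untreated cells, 4.61 at 0.01 uM and 1.20 at 1 uM, and was 8.75-fold lower at 1 uM. A second Rspo2 probe was not well above background on either array of that comparison. Rspo1 stood at -1.57 and -1.04 on the untreated and 0.01 uM arrays, was not well above background at 1 uM, and was at least 2.36-fold lower there. Fzd8, a Wnt receptor, had scaled log2 signals of 0.13, 0.30 and -1.33, 2.75-fold lower at 1 uM. With spike-in scaling Rspo2 was at -2.44 and Fzd8 at -0.78, the latter under 2-fold. The Rspo1 bound was then -0.55, which no longer reached 2-fold but leaves the size of its difference open. Averaged over all probes of the gene, dim ones included, Rspo2 was at -1.45 and Fzd8 at -0.63.

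Of the Wnt ligands and the proteins that release them, 5 of 21 could be compared. Porcn, the enzyme that attaches the lipid Wnt proteins need for secretion, was 2.19-fold lower at 1 uM, with scaled log2 signals of 1.43, 1.70 and 0.30. It was the 1 gene of this list that was 2-fold apart, and with spike-in scaling its difference was -0.45. Wls, which carries Wnt proteins to the cell surface and was singled out after its values were seen, was at -0.41 with its brightest probe and at 1.34 with another, so its probes disagreed in sign. Of 8 other antagonists compared, Notum was higher and Igfbp4 lower. Notum, an enzyme that removes the lipid from Wnt proteins, was not well above background in untreated cells or at 0.01 uM, and was at least 2.21-fold higher at 1 uM. Igfbp4, better known as a binding protein of insulin-like growth factors, was 2.21-fold lower, and at -0.46 with spike-in scaling. With normexp background correction Igfbp4 was at -0.61, under 2-fold. The Notum bound was then 0.67, which did not reach 2-fold but leaves the size of its difference open. Igfbp4 was also under 2-fold with loess scaling (-0.98) and as the mean of its probes (-0.80). Notum and Rspo1 could not be compared where both arrays had to be well above background.

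Inside the cell, 26 genes of the cytoplasmic and nuclear list could be compared at 1 uM, with a median of -0.17. Of these, 23 had a difference or a bound under 2-fold, and the others were factors of the Tcf family, to which Lef1 belongs. Gsk3a was among the 23 with a bound of -0.13, which leaves the size of its difference open. Among all genes compared, 10.5% were at least 2-fold apart. Tcf7 was 2.24-fold higher at 1 uM, at scaled log2 signals of -1.37, -1.41 and -0.20, and a second Tcf7 probe gave a bound of 1.29. Tcf7l1, which mainly acts as a repressor, was 2.11-fold lower, with -0.92 from a second probe. Tcf7l2 was 2.13-fold lower with its brightest probe, whereas another Tcf7l2 probe gave a bound of 1.51 and a further one a bound of -0.81, so its direction is uncertain. With spike-in scaling Tcf7l1 was at -0.39 and Tcf7l2 at -0.40, and with normexp background correction Tcf7 was at 0.85 and Tcf7l2 at -0.95. With loess scaling Tcf7l1 was at -0.99, just under 2-fold, as it was when its probes were averaged. As the mean of its probes Tcf7l2 was at -0.14. Ctnnb1, the gene of beta-catenin, was singled out after its values were seen and differed by -0.24 (SE 0.065), with further probes at -0.04 and -0.37.

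Of 17 other target genes compared at 1 uM, 2 were higher and 2 were lower, with a median of -0.15. Among all genes compared, 5.67% were higher and 4.86% lower. The higher genes were Tcf7 and Notum, which stand in this list too. Ccn5, a matricellular protein first described as Wnt-induced, had scaled log2 signals of 3.92, 4.24 and -0.59 and was 22.9-fold lower at 1 uM. Tnfrsf11b, the gene of osteoprotegerin, a decoy receptor that restrains osteoclasts, had scaled log2 signals of 1.56, 1.85 and -0.53 and was 4.26-fold lower. Both stayed at least 2-fold lower with spike-in scaling, at -3.83 and -1.40. Ccnd1, the gene of cyclin D1, was singled out after its values were seen and was at 0.65 (SE 0.065), under 2-fold.

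**Figure D4:**
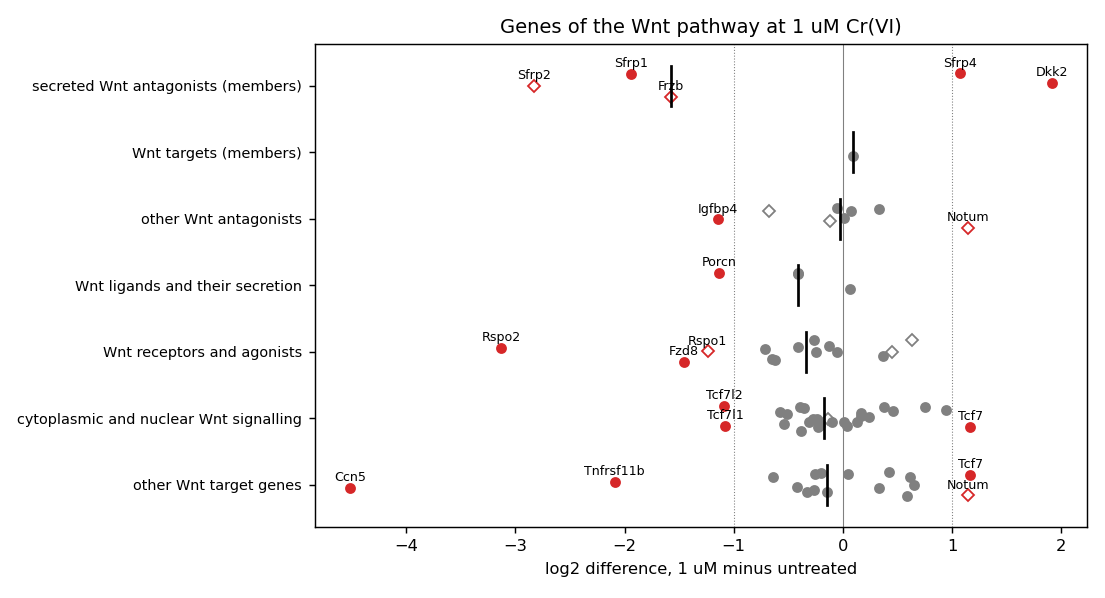
Log2 difference between 1 uM and untreated cells (horizontal axis) of the compared genes of the member lists and the 5 other Wnt lists. Red symbols are at least 2-fold apart, diamonds are bounds, and black bars are list medians. In the 5 other lists the medians lie between -0.41 and -0.02, and Ccn5 and Rspo2 lie farthest to the left.

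Some markers of mesenchymal fates differed at 1 uM too, in both directions. The summed scaled signal (linear, in units of the array's 75th percentile) of 6 adipocyte markers was 26.4 in untreated cells, 28.0 at 0.01 uM and 6.76 at 1 uM, and 2 of the 6 were well above background on each array. Fabp4, a fatty acid carrier, made up most of that sum, with a log2 difference of -2.39 at 1 uM, whereas Pparg, a regulator of fat cell formation, was at -0.31. Adipoq, Lep, Plin1 and Cidec, which define mature fat cells, were not well above background on any array.

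Of 9 bone and cartilage markers, 6 were well above background in untreated cells and at 0.01 uM and 5 at 1 uM, with summed signals of 25.5, 28.6 and 16.8. The sum hides opposite directions. The cartilage genes Col2a1 and Comp were lower at 1 uM, at -3.17 and a bound of -2.60, and the bone genes Bglap and Dmp1 were higher, at 2.56 and 2.37. Sox9 was at -0.33 and Runx2 at -0.37. The bone genes Sp7 and Ibsp and the cartilage gene Acan were not well above background on any array. The part of these differences in the Wnt values was not tested.

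Of the 16 fibroblast markers, Col1a1, Col1a2 and S100a4 were saturated on both arrays, so their sum cannot show a shift. Thy1, not well above background at 1 uM, had a bound of -5.65 there. Fn1 was well above background on every array and had a bound of -1.14 because it was saturated in untreated cells. Most of the other fibroblast markers were lower at 1 uM, each under 2-fold. Fbn1 was at -0.89, Pdgfrb at -0.85, Sparc at -0.81 and Col3a1 at -0.71. Col5a2 was at -0.56, Vim at -0.37 and Twist1 at -0.27, and Dcn had a bound of -0.47. The higher ones were Lum at 0.98, Pdgfra at 0.21 and Prrx1 at 0.14. Markers of macrophages and blood summed to 8.95, 9.66 and 10.4, with 2 of 9 well above background on each array and Ptprc, Adgre1 and Csf1r on none. Endothelial markers summed to 2.23, 2.43 and 1.99, mostly from Vwf, while Cdh5 was well above background at 1 uM only, with a bound of 1.92, and Pecam1, Kdr, Tek and Emcn were on no array. Skeletal muscle markers summed to 1.24, 1.42 and 0.70, and nerve and glia markers to 1.48, 1.40 and 1.30.

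Genes with the most similar pattern were sought for the member with the largest difference in each direction, by the distance between the pairs of log2 differences (each dose minus untreated), over 3 arrays. For Dkk2 these were Spn, Tslp and Atp1b1, at distances of 0.018, 0.053 and 0.10 among 9526 candidates. Spn was at 1.92 and -0.19, Tslp at 1.86 and -0.21, and Atp1b1 at 1.95 and -0.11, at 1 uM and 0.01 uM in turn, against 1.92 and -0.21 for Dkk2. For Sfrp2 none is named, because its 1 uM value and those of the 130 genes that shared its detection were not well above background and have no order. With 3 arrays such a likeness is a description only.

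Promoter sequences from the RefSeq table (build GRCm38.p6) matched 7 of the 10 members, with 10 transcription starts. Those of 3 members are printed, each as the 250 bases before the start: Dkk2, which was higher at 1 uM, Frzb, which was lower, and Dkk1, which held a Tcf and Lef motif but was not well above background. Capitals mark matches to CTTTGAT or CTTTGAA, the core letters that Tcf and Lef factors bind, searched on both strands. Capitals also mark TATAAA, a core promoter element, searched on the coding strand only. The marked stretches do not overlap. The Dkk2 stretch is chr3:132085042-132085291 on the plus strand, the Frzb stretch chr2:80447397-80447646 on the minus strand and the Dkk1 stretch chr19:30549497-30549746 on the minus strand.
Dkk2: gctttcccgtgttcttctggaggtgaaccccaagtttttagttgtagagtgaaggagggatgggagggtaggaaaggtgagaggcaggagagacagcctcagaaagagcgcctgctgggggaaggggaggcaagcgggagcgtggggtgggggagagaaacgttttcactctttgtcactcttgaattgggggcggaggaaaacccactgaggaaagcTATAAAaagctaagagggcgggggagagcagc
Frzb: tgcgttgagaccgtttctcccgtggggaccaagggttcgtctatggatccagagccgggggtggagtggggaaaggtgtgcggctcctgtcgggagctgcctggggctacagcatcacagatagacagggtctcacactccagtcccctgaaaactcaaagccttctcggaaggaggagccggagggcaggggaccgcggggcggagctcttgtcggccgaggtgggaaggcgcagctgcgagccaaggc
Dkk1: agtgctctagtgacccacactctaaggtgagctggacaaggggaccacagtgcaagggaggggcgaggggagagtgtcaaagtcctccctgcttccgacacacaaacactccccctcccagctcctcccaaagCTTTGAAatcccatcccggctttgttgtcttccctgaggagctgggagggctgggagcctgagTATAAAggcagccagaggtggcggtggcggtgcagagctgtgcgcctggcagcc

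Dkk2 held TATAAA beginning 32 bases before its start, and Dkk1 held it beginning 54 bases before. Of 32851 promoters of the same length, 8.32% held TATAAA on that strand. The one match to CTTTGAT or CTTTGAA among the members was the CTTTGAA of Dkk1, beginning 117 bases before the start. Of all promoters, 8.65% held CTTTGAT or CTTTGAA. The entries of Frzb, Sfrp2, Lef1, Wif1 and Axin2 had no match to these letters in this window. GC content was 55.6% in the Dkk2 stretch, 64.4% in that of Frzb and 60.8% in that of Dkk1, against a median of 52.4% over all promoters. A match is a description of letters, and no binding was measured.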

How the data were processed

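Spot intensity came from single-channel Cy3 scans extracted with Agilent Feature Extraction 10.5.1.1, per the file headers, and the processed signal was used. The authors' deposited value table holds log2 values, each column equal to log2 processed signal minus a constant (within 0.01 for at least 99.8% of probes), with its making not given in the sources used here. Control and outlier-flagged spots were left out, spots of a probe were averaged, and each array's 75th percentile was subtracted. The brightest probe stood for a gene. A gene was compared if detected, that is well above background, on either array. A bound set the bright value against the dim one or the array's lowest detected signal, whichever was higher. Where the brighter array alone was saturated, the measured difference was taken as a bound. Called means at least 2-fold apart, with no test. Genes with no fold (a bound under 1, or saturated on both arrays) were counted as not apart and left out of medians.

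Probes were named through RefSeq accessions (25097), symbols (6333) or synonyms (1640), and 8104 kept the file's name. The members and lists were chosen with earlier results of these data known. Named genes were all members, and of each other list up to 4 genes per direction at least 2-fold apart at 1 uM. Wls, Ctnnb1, Ccnd1 and single markers were added after their values were seen. The TATAAA search and the neighbouring genes were added after seeing the data. Alternatives were 5 other scalings (spike-in used 5 probes), normexp with offset 50 (limma 3.58.1, R 4.3.3), 2 filters, a mean over a gene's probes, no removal of outlier spots, the authors' table and thresholds of 1.5-fold and 3-fold. Tables were made with Python 3.11.15, numpy 2.4.6, pandas 2.3.3 and statsmodels 0.14.6. Counting was tested on simulated data. The number of arrays limits the precision.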

Additional observations from a re-analysis of the deposited data

How the results depend on the processing

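Of the 13 alternatives, the 2 thresholds bear on counts only. Under the other 11 (10 for Sfrp2 and Frzb at 1 uM), none of the 5 called members changed sign at 1 uM against untreated or between the doses. Among differences under 2-fold, 4 values changed sign: Dkk2 at 0.01 uM with spike-in scaling (0.10), and Lef1 between the doses with spike-in scaling (0.29) and with the 75th percentile (0.045) or median (0.0025) of detected probes. The member count at 1 uM was 3 where both arrays had to be well above background (Sfrp2 and Frzb could not be compared). At a 3-fold threshold the member count at 1 uM was also 3 (Sfrp4 and the bound of Frzb fell short). Between the doses it was 3 with both arrays required. The Dkk2 difference at 1 uM ranged from 1.43 with normexp to 2.60 with spike-in scaling, and that of Sfrp1 from -2.18 to -1.25. Other Wnt genes at 1 uM numbered 17 with spike-in scaling, 7 with normexp (0 higher), 22 at 1.5-fold and 3 at 3-fold. Between the doses they numbered 22 and 5 at those thresholds, and at 0.01 uM 4 with no filter and 1 at 1.5-fold. Of all genes, 1311 were called at 1 uM against untreated, and 3325 with spike-in scaling, 740 with normexp, 2924 with no filter, 3402 at 1.5-fold and 374 at 3-fold. At 0.01 uM there were 52, and 16 with normexp, 16 with both arrays required, 984 with no filter, 242 at 1.5-fold and 11 at 3-fold. Between the doses there were 1405, and 898 with normexp, 3108 with no filter, 3579 at 1.5-fold and 426 at 3-fold. Without a filter, probes at surrogate values enter; other causes were not tested. Dim probes give bounds, so differences of the 4 undetected members were not measurable. No paired analysis was possible because each group had 1 array. The planned comparison of protein sequences was not run.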

Other observations

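The nearest detected genes on either side of the 5 members that were 2-fold apart were read as well, a choice made after seeing the data. Of these 10 neighbours, 0 were at least 2-fold apart at 1 uM, beside 10.5% of all genes compared, which for 10 genes is near the background. Their differences ran from -0.90 to 0.52 on the log2 scale. Tlr2, whose probe lies 62.5 kb from that of Sfrp2, was at -0.90, and Epdr1, 40.7 kb from Sfrp4, was at 0.52. Elmo1, on the other side of Sfrp4, had a bound of -0.31, and Plrg1, on the other side of Sfrp2, was at -0.51. Golga7 and Tcim, beside Sfrp1, were at -0.15 and -0.03. The genes beside Dkk2, Papss1 and Aimp1, were at -0.05 and -0.41, and those beside Frzb, Dnajc10 and Nckap1, at -0.14 and -0.06.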
